A study of Mus musculus with 143 samples.

Results

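The regions described here are H3K27me3 peaks that oocytes of control mice at postnatal day 20 (p20) had in common and that were called in none of the libraries from oocytes lacking both Dis3 and Exosc10. They were chosen by position: autosomal peaks under 5 kb in control list 1 that overlapped by at least 1 bp a peak in control lists 2 and 3 and no peak in dcKO lists 1, 2 or 3. Of 149773 autosomal peaks under 5 kb in that list, 57157 were found in all 3 control lists, and 4785 of these (8.37%) met the rule; they are called lost peaks, and the other 52372 kept peaks. The label refers to peak calls. It does not state that the mark was gone from the DNA, since a region under a caller's threshold has no entry in a list. Because the choice itself used the p20 control and dcKO lists, every comparison of H3K27me3 between those groups is a description with no test.

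The samples were pooled oocytes profiled by CUT&Tag, which cuts and tags DNA where an antibody is bound, with 3 libraries in each group. H3K27me3 was profiled at p20 in control and in dcKO oocytes (the double conditional knockout of Dis3 and Exosc10), and at the adult germinal vesicle (GV) stage, in prophase arrest with an intact nucleus, in control and in Dis3 cKO oocytes. Peaks of RNA polymerase II (Pol II, titles naming S2 and S5 in shorthand) were available for p20 control, adult control and adult Dis3 cKO oocytes. RNA was sequenced from single oocytes after removal of ribosomal RNA, with 8 libraries in each p20 genotype (control, dcKO and the single knockouts of Dis3 and of Exosc10) and 8 in adult GV control and adult Dis3 cKO. The labels say that the mutant mice were made with CRISPR/Cas9, and do not give the Cre driver, the strain, the age of the adults or whether libraries came from separate animals, so p-values measure the spread between libraries, which may be technical. The titles of the RNA libraries carry 2 numbers or codes per group, each shared by 4 libraries; what the code stands for is not given, and libraries that share it may not be independent.

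H3K27me3 is written by Polycomb repressive complex PRC2 and bound by chromobox (CBX) subunits of PRC1. In many cell types it lies over promoters of silent developmental regulators, often at CG-rich DNA, and in growing mouse oocytes it also covers broad gene-poor domains, some of which carry a maternal imprint into the embryo. The nuclear RNA exosome trims and degrades RNA through its catalytic subunits DIS3 and EXOSC10, including short-lived transcripts made upstream of promoters and at enhancers.

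The promoters below sit in some of the highest-signal lost peaks and show the range of sequence found there. Each is the RefSeq window (GRCm38.p6, the same primary chromosomes as mm10) of 250 bases before to 50 bases after a gene start, 5′ to 3′ on the gene's strand, with CG dinucleotides in capitals.
Gsc, chr12:104473187-104473486, minus strand: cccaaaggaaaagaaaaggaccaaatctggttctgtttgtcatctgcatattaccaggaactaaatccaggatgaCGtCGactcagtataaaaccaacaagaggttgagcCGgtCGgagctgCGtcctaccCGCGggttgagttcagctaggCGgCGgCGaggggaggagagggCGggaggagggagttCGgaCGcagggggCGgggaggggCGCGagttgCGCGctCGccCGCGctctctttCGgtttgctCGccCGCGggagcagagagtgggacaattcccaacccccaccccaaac
Efna3, chr3:89321719-89322018, minus strand: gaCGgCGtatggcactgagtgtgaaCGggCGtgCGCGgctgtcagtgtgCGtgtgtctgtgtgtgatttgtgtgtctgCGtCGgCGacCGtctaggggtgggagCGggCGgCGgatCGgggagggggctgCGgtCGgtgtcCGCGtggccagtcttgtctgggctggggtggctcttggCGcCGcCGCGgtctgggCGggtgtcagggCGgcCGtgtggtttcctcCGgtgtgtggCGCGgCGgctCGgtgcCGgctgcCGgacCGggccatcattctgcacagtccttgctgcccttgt
Syt2, chr1:134646362-134646661, plus strand: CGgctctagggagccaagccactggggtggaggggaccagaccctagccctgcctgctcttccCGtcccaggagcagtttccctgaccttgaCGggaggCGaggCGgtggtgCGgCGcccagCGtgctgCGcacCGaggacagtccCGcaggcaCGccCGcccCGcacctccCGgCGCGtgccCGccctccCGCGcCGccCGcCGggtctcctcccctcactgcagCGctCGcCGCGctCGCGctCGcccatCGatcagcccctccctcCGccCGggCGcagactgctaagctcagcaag
Kcnk13, chr12:99964249-99964548, plus strand: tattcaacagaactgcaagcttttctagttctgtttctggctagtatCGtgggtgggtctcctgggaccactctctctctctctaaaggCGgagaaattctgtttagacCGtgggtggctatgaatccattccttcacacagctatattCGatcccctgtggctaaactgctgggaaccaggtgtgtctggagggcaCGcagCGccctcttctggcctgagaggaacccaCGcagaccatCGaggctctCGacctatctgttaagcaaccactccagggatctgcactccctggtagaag
Platr30, chr3:96345037-96345336, plus strand: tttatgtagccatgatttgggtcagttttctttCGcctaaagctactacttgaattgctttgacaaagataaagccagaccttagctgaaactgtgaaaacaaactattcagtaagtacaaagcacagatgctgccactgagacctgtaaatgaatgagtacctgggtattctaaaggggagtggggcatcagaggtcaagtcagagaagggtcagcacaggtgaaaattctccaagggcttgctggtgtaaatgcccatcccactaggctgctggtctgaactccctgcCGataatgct
The Efna3 and Syt2 windows hold 34 CG each, the Gsc window 25, the Kcnk13 window 9 and the Platr30 window 2. High signal in control oocytes was therefore found at CG-rich and at CG-poor starts alike.

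Most lost peaks were narrow and weak, as were peaks kept in only 1 dcKO list. Their median width was 642 bp against 936 bp for kept peaks, and their median total signal, in the authors' units, was 2347 against 3877. The median of the highest signal within the peak was 7 and 9. The 10070 peaks kept in 1 dcKO list were close to lost peaks, with medians of 677 bp, 2502 and 7. Widths ran from 68 to 4872 bp, and 3748 of the 4785 were under 1 kb. Wide peaks were a smaller part of lost than of kept peaks: 227 lost peaks (4.74%) were 2 kb or wider, against 13.3% of kept peaks and 2.42% of those kept in 1 dcKO list. Of the 227, 85 were 3 kb or wider with a median total signal of 31638, above the 23906 of kept peaks of that width.

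**Figure D1:**
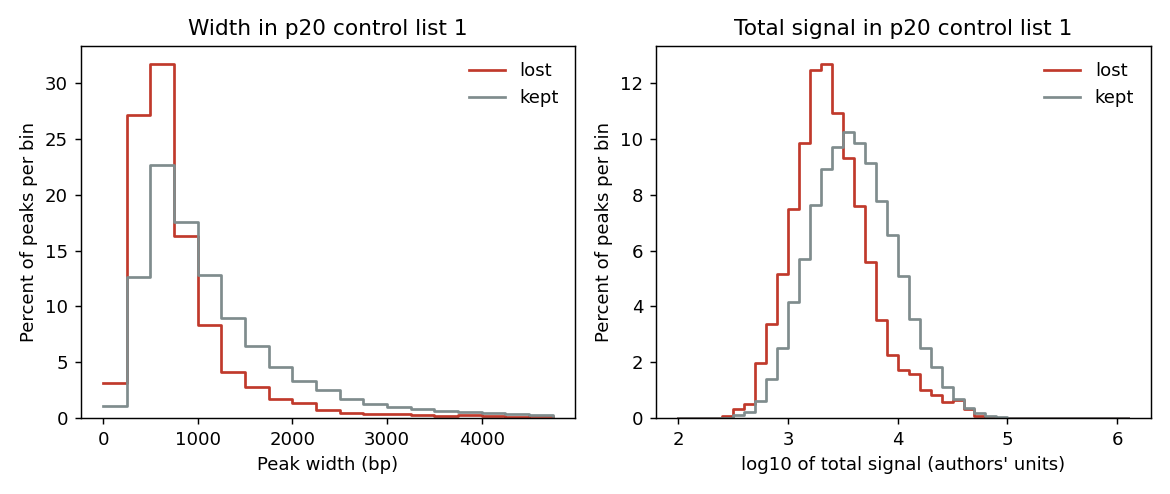
Distribution of peak width (bins of 250 bp, left) and of log10 total signal (right) in p20 control list 1, as the percent of lost (red) and kept (grey) peaks in each bin. Lost peaks sit to the left of kept peaks on both axes, with medians of 642 and 936 bp and of 2347 and 3877 signal units.

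Signal at the same lost peak varied between the 3 control lists. The median total signal of the overlapping peaks was 3779 in list 2 and 3312 in list 3. The coefficient of variation over the 3 lists had a median of 55.5% (quartiles 35.6% and 78.9%), close to the 51.0% of kept peaks. In 2496 lost peaks (52.2%) the highest list exceeded the lowest by more than 3 times, as in 46.6% of kept peaks. The peaks in the lists differ in their extent, which enters these totals.

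The dcKO lists were not shorter. They held 244827 to 299716 peaks covering 165 to 193 Mb, against 151535 to 159895 peaks covering 129 to 132 Mb in the p20 controls, but their widest peak was 12770 bp against 87823 bp in the controls. With control and dcKO lists exchanged, the same rule returned 12571 of 63362 dcKO peaks (19.8%). This share cannot be ranked against the 8.37% of control peaks, because the lists differ in length. With every list held to 2126 signal units or above, the median of control list 1, the rule in its first direction gave 5950 of 29952 control peaks (19.9%). That floor lies farther above the medians of the dcKO lists (1178 to 1526) than above those of the control lists (2001 to 2126). The 19.9% is therefore not from a filter matched within each list. Many lost peaks had a dcKO peak close by: the median distance was 514 bp, and 3156 (66.0%) lay within 1 kb of one. This differed with width. Of lost peaks under 500 bp, 76.8% had a dcKO peak within 1 kb, and of those 2 kb or wider 26.9%, with a median distance of 2900 bp. The wide lost peaks thus lay farther from a dcKO call than the narrow ones. Lost peaks were on every autosome, from 6.39% of the shared control peaks on chromosome 4 to 10.0% on chromosome 10.

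The 10 lost peaks with the highest total signal in control list 1 were each called in all 3 adult control H3K27me3 lists, and in 0 or 1 of the adult Dis3 cKO lists. The first, chr5:111417656-111422267 (4612 bp), lies in Mn1, which encodes a transcriptional coregulator, and had a total signal of 64903, 64120 and 43269 in control lists 1, 2 and 3. The second, chr3:89317647-89322442, covers the start of Efna3, an ephrin ligand of Eph receptors, with 64457, 78248 and 52927. An adjacent pair on chromosome 12, at 104469907-104472767 and 104472884-104476484, covers Gsc, the homeobox gene goosecoid, and the start of the noncoding gene Gm10000 that faces it. The first of that pair had 56502, 58776 and 37176 and the second 49583, 51406 and 79595. Each of these was strong in all 3 control lists.
Other high-signal lost peaks covered the start of Syt2 (chr1:134645158-134649837), a calcium sensor of vesicle release, with 55290, 55266 and 32019. The start of Platr30 (chr3:96341867-96346666), a noncoding RNA gene, lay in a peak with 54205, 51354 and 39290. The start of Kcnk13 (chr12:99963991-99968119), a potassium channel subunit, lay in a peak with 48146, 85268 and 34149. That peak was 50239 bp from the nearest dcKO peak, and the one at Syt2 was 25323 bp from it. Peaks within Unc5b, a netrin receptor (chr10:60824624-60828709), and within Dqx1 (chr6:83063806-83067757) varied more, with 49258, 98194 and 18965 for the former and 46971, 194766 and 82335 for the latter. The remaining peak of the 10, chr9:74850844-74855502, lies in the predicted genes Gm16551 and Gm33562 and had 57863, 70348 and 31180.

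At the width limit, the 3 widest lost peaks measured 4872 bp (at Matk, a tyrosine kinase), 4800 bp (Platr30) and 4796 bp (Efna3), with total signals of 33721, 54205 and 64457. Lost in the same way but over 5 kb, and so not counted, were 17 peaks. The 3 nearest the limit measured 5044 bp (Col13a1, a collagen), 5330 bp (Prdm16, a zinc finger regulator) and 5443 bp (within Mmp17, a matrix metalloproteinase), with 43939, 92021 and 30489. Values on either side of the limit were of the same order.

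In adult GV oocytes, lost peaks were recovered in a smaller share than kept peaks as a whole in each of 6 lists, but in adult controls their share lay above that of peaks kept in 1 dcKO list in some lists and below it in another. They were overlapped by a peak in 38.1%, 63.0% and 41.4% of cases in adult control lists 1, 2 and 3 (47.5% ± 13.5, SD, n = 3 lists), and in 43.2%, 33.7% and 33.3% in the adult Dis3 cKO lists (36.7% ± 5.64, n = 3). The highest value came from adult control list 2, which holds 202628 peaks against 98190 and 87394 in the other two. The groups overlapped, and the difference of -10.8 points did not pass an exact 2-sided permutation test of 3 lists against 3 (p = 0.30, where 0.10 is the smallest possible). Without that list the difference was -3.05 points, and with adult peaks at or above their list's median signal alone it was -20.5 points (exact permutation p = 0.10).
Kept peaks were overlapped in 61.1%, 65.6% and 55.4% of cases in adult controls and in 81.2%, 72.3% and 73.8% in adult Dis3 cKO. The share of lost minus that of kept peaks was -23.0, -2.56 and -13.98 points in adult control lists 1, 2 and 3, and -38.0, -38.6 and -40.5 points in the Dis3 cKO lists. The mean difference was -13.2 points in adult controls (exact 2-sided sign-flip permutation test over 3 lists, p = 0.25, the smallest possible). It was -5.60 points with kept peaks weighted to the widths of lost peaks (exact permutation p = 0.50) and -2.91 points when 50% of a peak had to be covered (exact permutation p = 0.75). Peaks kept in 1 dcKO list were overlapped in 44.6%, 53.9% and 40.8% of cases in adult controls (46.4% ± 6.77), below lost peaks in lists 2 and 3 and above them in list 1. In the Dis3 cKO lists they stood at 66.0%, 54.9% and 55.9%, above lost peaks in each. The gap between lost and kept peaks was 25.9 points wider in adult Dis3 cKO lists than in adult controls, with no overlap between groups (exact permutation test, p = 0.10, the smallest possible). A design of this size cannot pass 0.05, so none of these comparisons could reach it. From adult control to Dis3 cKO lists the mean share of kept peaks went from 60.7% to 75.8%, and that of lost peaks from 47.5% to 36.7%. The Dis3 cKO lists are longer than the adult control lists, at 224934 to 276316 peaks, and the part of list length in the wider gap was not tested.
Of the 4785 lost peaks, 1884 (39.4%) had a peak in no adult Dis3 cKO list and 637 (13.3%) in all 3 of them. In adult control lists, 987 (20.6%) were in none and 897 (18.7%) in all 3. Among kept peaks 4.95% were in no adult Dis3 cKO list. A set of 527 lost peaks was called in all 3 adult control lists and in none of the Dis3 cKO lists, which is 11.01% of lost peaks against 0.810% of kept peaks.

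**Figure D2:**
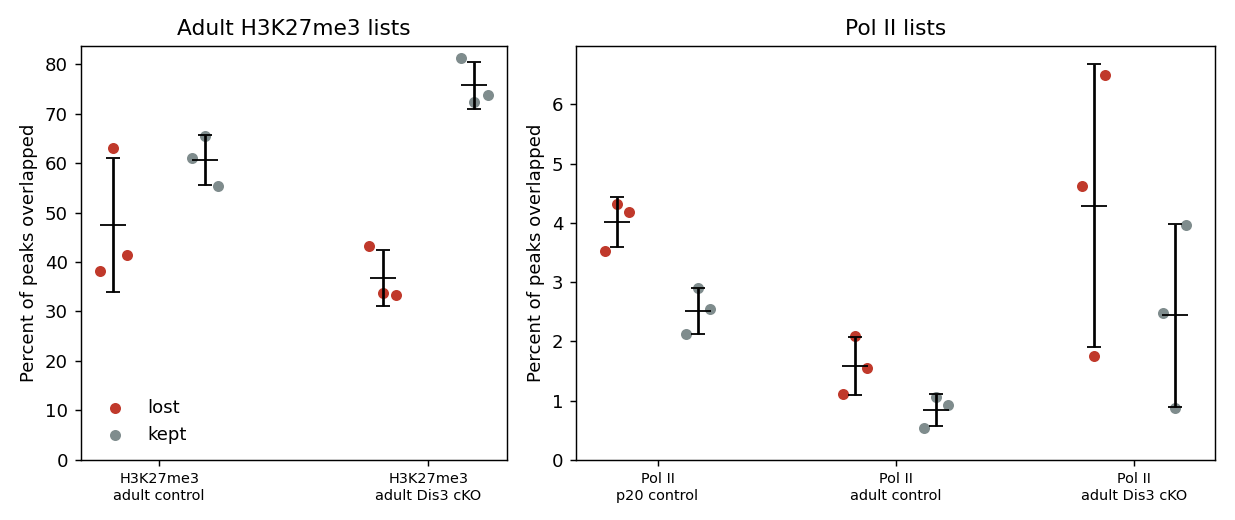
Percent of lost (red) and kept (grey) peaks overlapped by 1 bp or more in each adult H3K27me3 list (left) and each Pol II list (right), 1 point per list, with the mean and SD over 3 lists in black. Lost peaks lie at 33.3% to 43.2% and kept peaks at 72.3% to 81.2% in the adult Dis3 cKO lists, with a smaller gap in adult controls.

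The adult state of lost peaks differed with their width. Those under 500 bp were overlapped in 30.1% to 53.2% of cases in adult control lists and in 32.8% to 46.1% in adult Dis3 cKO lists. At 2 to 3 kb (142 peaks) the shares were 82.4%, 96.5% and 85.2% in adult controls and 20.4%, 16.9% and 9.86% in Dis3 cKO. At 3 to 5 kb (85 peaks) they were 98.8% in list 1 and all 85 peaks in lists 2 and 3, against 22.4%, 7.06% and 8.24%. Kept peaks of 3 to 5 kb were overlapped in 96.9% to 97.4% and in 93.4% to 96.5% of cases. Of the 227 lost peaks of 2 kb or wider, 189 were called in all 3 adult control lists and 165 in none of the Dis3 cKO lists, and 140 did both. The wide class was set after the values were seen, so its shares are given with no test. The adult Dis3 cKO oocytes lack only Dis3 and not Exosc10, so this is a different genotype from the p20 dcKO.

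**Figure D3:**
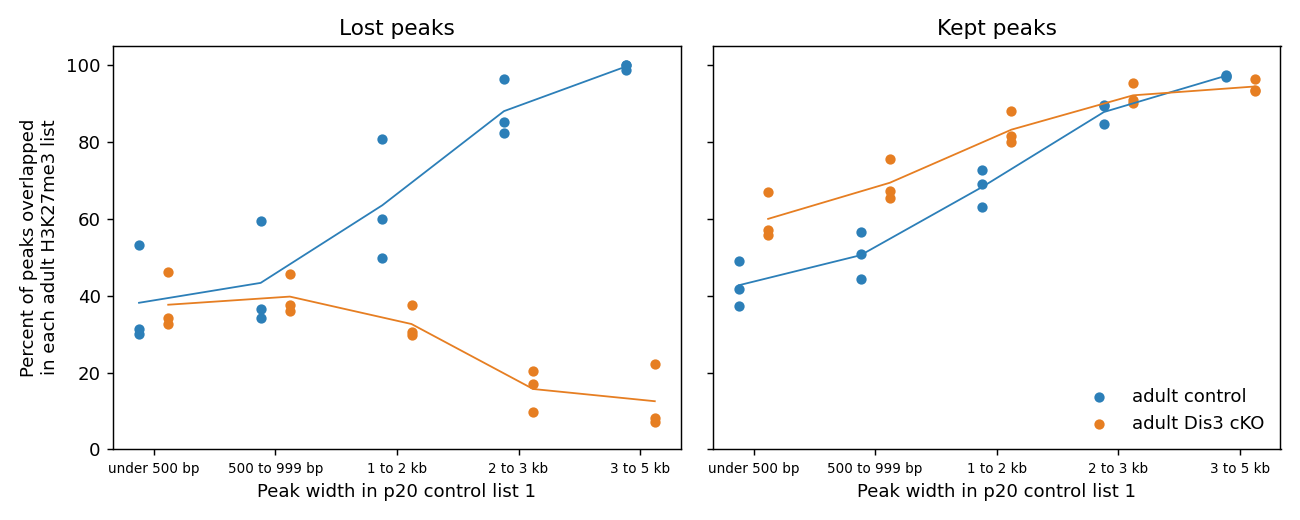
Percent of lost (left) and kept (right) peaks of each width class overlapped in each adult H3K27me3 list, 1 point per list and a line through the group means, for adult control (blue) and adult Dis3 cKO (orange). In lost peaks the groups overlap below 1 kb and part from 1 kb upward, reaching at least 98.8% against 7.06% to 22.4% at 3 to 5 kb, while in kept peaks of that width both are above 93%.

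Few lost peaks carried a Pol II peak. In the 3 p20 control Pol II lists, 3.53%, 4.33% and 4.18% of lost peaks were overlapped (4.01% ± 0.423, SD, n = 3), against 2.12%, 2.90% and 2.54% of kept peaks (2.52% ± 0.390) and 1.12%, 1.69% and 1.37% of peaks kept in 1 dcKO list. The share was higher for lost peaks in 3 of 3 lists, with a mean difference of 1.49 points (exact sign-flip permutation test, p = 0.25, the smallest possible), and of 0.685 points when 50% of a peak had to be covered. Lost peaks of 2 kb or wider were overlapped in 21.4% ± 5.11 of cases and kept peaks of that width in 4.14% ± 0.789, described with no test. In adult Dis3 cKO oocytes the share of lost peaks with a Pol II peak was 4.62%, 1.76% and 6.5%, against 1.11%, 2.09% and 1.55% in adult controls, and these groups overlapped. Kept peaks ran alike, at 2.48%, 0.876% and 3.97% against 0.537%, 1.05% and 0.924%. Dis3 cKO Pol II lists 1 and 3 hold 88697 and 122606 peaks, list 2 30311 and the adult control lists 19697 to 35843. A Pol II list for p20 dcKO was not analysed here.

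Lost peaks were found near gene starts somewhat more often than kept ones. Within 1 kb of a RefSeq start lay 607 of 4625 lost peaks (13.1%; chromosome 18 has no starts in the table used and was left out) and 9.56% of kept peaks (8.78% of those kept in 1 dcKO list). Over all widths, near a start, lost peaks were overlapped in 65.6% ± 16.7 of cases in adult controls and 21.3% ± 5.14 in adult Dis3 cKO, and away from starts in 44.8% ± 13.3 and 39.2% ± 5.73 (n = 3 lists each, no test). For kept peaks the shares were 73.3% ± 5.44 and 76.6% ± 4.59 near a start, and 59.5% ± 5.05 and 75.8% ± 4.80 away from one. Among lost peaks of 2 kb or wider, the shares near and away from a start were close, at 94.1% ± 3.53 and 12.1% ± 4.42 near one and 91.0% ± 5.96 and 17.1% ± 7.34 away from starts. The promoter windows under lost peaks were rich in CG: 351 windows had a median of 17 CG in 300 bases, against 9 under kept peaks, 11 under those kept in 1 dcKO list and 7 over all 32851 windows. The CG dinucleotide, which reads the same on both strands, occurred 15 or more times in 56.4% of windows at lost peaks, in 32.9% at kept peaks and in 34.6% of all windows. In windows at lost peaks under 1 kb that share was 49.0%, against 26.4% for kept peaks of that width. These shares describe sequence, and windows of neighbouring starts share bases.

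**Figure D4:**
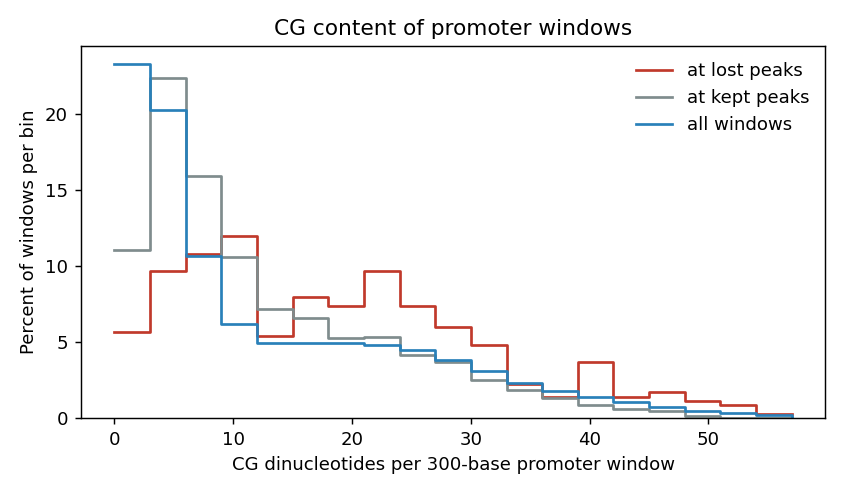
Number of CG dinucleotides in 300-base RefSeq promoter windows overlapping lost peaks (red), kept peaks but no lost peak (grey) and in all windows (blue), as percent of windows in bins of 3. Windows at lost peaks are shifted to the right, with a median of 17 against 7 for all windows.

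RNA was compared at genes that lost peaks touch, with the targeted genes as a check of the labels. Dis3 ran from 6.27 to 20.1 counts per 1000000 gene counts (CPM, median 13.9) in p20 controls and from 1.73 to 4.34 (median 2.72) in dcKO, and Exosc10 from 103 to 137 (median 118) and from 3.14 to 14.8 (median 4.92). The 16 oocyte markers were detected in all 32 p20 libraries, from Figla at 7.02 to 25.8 CPM to Gdf9 at 2341 to 5765. Their sum was 13035 to 17236 CPM in controls and 17666 to 20606 in dcKO, with no overlap, and 13 of 16 were called in dcKO, 6 higher and 7 lower, where 53.7% of all genes were called. Of the somatic ovarian markers 5 of 12 tested were called, 3 higher and 2 lower. The 18 somatic ovarian markers summed to 169 to 245 CPM in controls and 161 to 258 in dcKO, of which Nr5a2 and Pecam1 gave the highest values. Col1a2 was at 0 in 30 of 32 libraries and Ptprc at 0 in 26. By contrast, Nr5a2, Pecam1, Fshr, Cyp19a1 and Kitl were above 0 in all 32 libraries. The highest library was at 10.95 CPM for Fshr, 35.97 for Cyp19a1 and 46.84 for Kitl. Amh, Inha and Star were each at 0 in 2 libraries and Inhba in 1, and the remaining markers in 8 to 20. None of the 18 somatic markers held a lost peak in its body, and their part in the results was not tested. Gene counts per library ran from 8492102 to 23801344.

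Of genes with a start within 1 kb of a lost peak, 566 were found, 477 with an identifier in the count table and 290 with enough counts to test. In dcKO against control, 81 of the 290 rose (27.9%) and 85 fell (29.3%), with a median log2 fold change of 0.07. Over all 15882 genes tested, 26.6% rose and 27.1% fell (53.7% called), with a median of -0.01, by the quasi-likelihood test of edgeR at a Benjamini-Hochberg adjusted p under 0.05. The genes at lost peaks were called at close to the rate of all genes in either direction. With scaling to the ERCC spike-in counts, 53 of the 290 rose (18.3%) and 69 fell (23.8%), against 17.8% and 20.4% of all genes. Of 913 tested genes whose body held a lost peak, 219 rose and 250 fell (51.4%). In the single knockouts, which share the p20 controls, 9 of the 290 start genes rose (3.10%) and 22 fell (7.59%) in Dis3 cKO. Over all genes 3.61% rose and 3.76% fell there, and 10.7% of start genes and 7.37% of all genes were called. In Exosc10 cKO 3 start genes rose (1.03%) and 22 fell (7.59%), against 3.95% and 3.50% of all genes. The shares called there were 8.62% and 7.45%. In adult Dis3 cKO 28 of 269 rose (10.4%) and 47 fell (17.5%), against 15.7% and 12.4% of 15334 genes. The shares called in either direction were 27.9% and 28.1%. Differences in direction from all genes were not tested. The counts in the single knockouts and in adults depend on treating libraries as independent. With counts summed over libraries that share a title number or code, an alternative added after seeing the data, edgeR called 8 of 356 start genes (2.25%) in Dis3 cKO, against 1.37% of all genes, and 2 (0.562%) in Exosc10 cKO, against 0.832%. In adult Dis3 cKO it called 0 of 344 start genes, of which 75 had an unadjusted p under 0.05, and 0 of all 20190 genes, of which 3577 did. In dcKO it called 129 of 356 (36.2%), against 31.8% of all genes.
Genes at lost peaks were more often detected in control oocytes than genes at kept peaks. A median of 48.8% of 473 genes with a start near a lost peak had at least 1 CPM in a p20 control library (range 45.9% to 52.9% over 8 libraries), against 18.5% (17.6% to 19.0%) of 2885 genes near a kept peak. All genes with a start in the table stood at 46.4% (45.3% to 47.3%). The ranges of lost and kept did not overlap, although a gene near peaks of both kinds counts in both groups. Genes at peaks kept in 1, 2 and 3 dcKO lists stood at 25.8%, 20.6% and 14.95%, and genes at lost peaks of 2 kb or wider at 64.0% (59.1% to 72.0%). In dcKO libraries the share at lost peaks was 54.8% (52.6% to 56.4%) and at kept peaks 19.97% (17.8% to 21.3%). These levels were not used to choose the peaks, and no test across genes was made.

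At the strongest lost peaks, the facing genes Gsc and Gm10000 rose. Gsc ran from 1.41 to 6.37 CPM in controls (median 3.31) and from 4.72 to 12.7 in dcKO (median 8.70), so that all 8 dcKO libraries lay above 7 of the 8 controls; its log2 fold change was 1.40 ± 0.33 (SE, edgeR adjusted p = 0.000539). Gm10000 went from 0.107 to 2.09 CPM (median 1.12) to 2.21 to 6.48 (median 4.49), with no overlap (log2 fold change 1.88 ± 0.48, edgeR adjusted p = 0.00138). Whether counting used strand is not given in the sources used here, so reads from facing or overlapping genes could be shared. Efna3 rose from a median of 1.06 CPM (0.058 to 2.71) to 2.79 (2.08 to 7.57), with overlap between the groups (log2 fold change 1.63 ± 0.56, edgeR adjusted p = 0.0143). With counts summed over libraries that share the first number of their title, the edgeR adjusted p of Efna3 was 0.0624.
Not every strong peak had a gene that passed the test. Kcnk13 ran from 42.9 to 58.4 CPM (median 49.8) in controls and 53.0 to 69.8 (median 61.8) in dcKO, log2 fold change 0.27 ± 0.12, edgeR adjusted p = 0.0633. It was called by DESeq2 (adjusted p = 0.0320), with only control and dcKO in the edgeR fit (adjusted p = 0.00997) and with the title number as a block (edgeR adjusted p = 0.0400). Platr30 ran from 11.1 to 15.02 CPM (median 13.96) in controls and 8.72 to 18.1 (median 13.1) in dcKO, log2 fold change 0.02 ± 0.15. Syt2 was called at 0.52 ± 0.22 (edgeR adjusted p = 0.0488), near the threshold, and was not called with ERCC scaling (edgeR adjusted p = 0.210). Its groups overlapped, at 4.18 to 10.2 CPM in controls (median 7.82) and 5.39 to 16.7 in dcKO (median 11.4).
Vrtn, which is linked to vertebral number, rose from a median of 475 CPM (377 to 509) to 785 (604 to 839), with no overlap (0.68 ± 0.09). Pde10a, a cyclic nucleotide phosphodiesterase, fell from a median of 17.3 CPM (12.1 to 19.9) to 7.60 (4.77 to 9.30), also with no overlap (-1.16 ± 0.15). Cdk5r2, an activator of the kinase Cdk5, fell from 18.5 (10.1 to 40.3) to 6.28 (1.13 to 14.8), with overlap (-1.48 ± 0.33). Others at strong lost peaks did not pass the test, among them Ckb (-0.006 ± 0.126), Kdelr1 (0.08 ± 0.11), Slc30a3 (-0.02 ± 0.11) and Adcy5 (-0.22 ± 0.18). Genes at strong lost peaks thus rose, fell or were not called, where 53.7% of all genes were called.

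**Figure D5:**
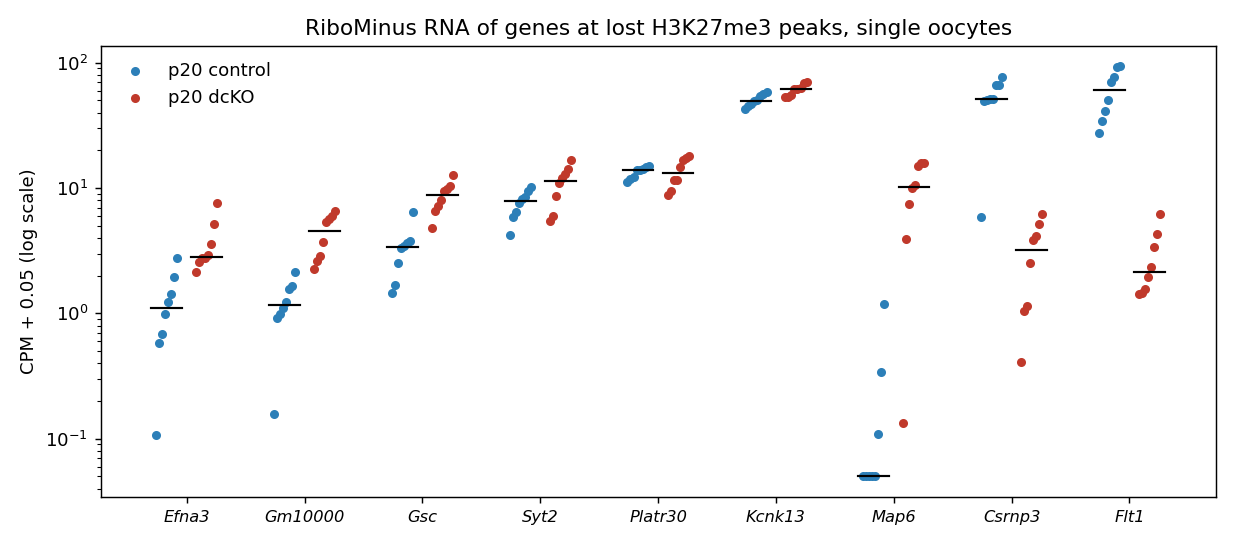
Level of 9 genes at lost peaks in single p20 oocytes, as CPM plus 0.05 on a log axis, 1 point per library (8 per group; control blue, dcKO red) and a bar at the median. The dcKO libraries lie above the controls without overlap at Gm10000, below them at Flt1, and overlap them at Platr30 and Syt2.

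The 5 largest rises among genes holding a lost peak in their body were of genes with a median near 0 in controls. Fignl2 had 0 counts in 146320839 gene counts of the 8 control libraries and 427 in 94923081 of the dcKO libraries, so it was at least 219-fold higher, against a floor of 3 counts over the control group. Klf12, a zinc finger transcription factor, was at 0 in 6 control libraries, at 0.0498 and 0.411 CPM in the other two, and at 1.28 to 12.6 CPM in dcKO, with no overlap. Map6, a microtubule-stabilising protein, was at 0 to 1.14 CPM in controls (median 0) and 0.0836 to 15.8 in dcKO (median 10.2), overlapping because of 1 low dcKO library. The lost peak in Map6 is one of the strong wide ones, at 39004 signal units and 3600 bp.
The largest falls were Prkcb, Ust, Tfap2b, Flt1 and Csrnp3. Flt1, a receptor for vascular endothelial growth factor, went from a median of 60.3 CPM (27.5 to 93.4) to 2.10 (1.38 to 6.18), with no overlap (log2 fold change -4.44 ± 0.36, edgeR adjusted p = 1.17e-11). Ust, a sulfotransferase acting on dermatan and chondroitin sulfate, went from 28.8 (10.7 to 63.7) to 0.742 (0 to 2.08), with no overlap (-4.98 ± 0.58). Csrnp3 was at 49.1 to 76.9 CPM in 7 control libraries and 5.87 in the other, and at 0.357 to 6.18 in dcKO. The lost peaks in these genes were weaker than those at the strongest starts: the peak in Flt1 had 6985 signal units and that in Csrnp3 1360.

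Lists of developmental regulators, Polycomb genes and imprinting candidates were then searched for lost peaks. Of 98 developmental regulators searched near a start, 10 had a lost peak within 1 kb of a start: Emx2, Foxc1, Foxd3, Hoxa10, Neurog3, Nkx2-9, Nkx6-2, Six4, Sox1 and Sox11, all transcription factors of patterning and tissue identity. A kept peak lay near the start of 53. These are 10.2% and 54.1% of the listed genes, against 2.20% and 14.9% of 25748 autosomal genes with a start in the table, so the list stood above all genes for both kinds of peak. In bodies, 40 of those searched held a lost peak (26.8%) and 104 a kept one (69.8%), against 4.64% and 18.1% of 47042 autosomal RefSeq genes; gene length was not adjusted for here or in the lists that follow. A lost peak overlapped 41 listed genes in body or near a start. Of these, 21 could be tested in RNA, and 4 rose and 7 fell in dcKO, which is near the 53.7% of all genes called, with a median log2 fold change of -0.36. Among the 7 that fell, Pax2, Tbx3 and Tbx4 were not called with counts summed per first title number. Over the whole list, 10 of 52 tested rose and 12 fell, with a median of 0.34. Foxc1, a forkhead factor, rose from a median of 19.9 CPM (10.3 to 28.1) to 40.0 (14.2 to 104), with overlap between groups (1.31 ± 0.32, edgeR adjusted p = 0.000834). Gata3 was among those that fell (-1.89 ± 0.34).
Of 35 Polycomb genes, 8 held a lost peak (22.9%) and 5 a kept one (14.3%), against 4.64% and 18.1% of all autosomal genes, so the list stood above all genes for lost peaks and below them for kept peaks. Near a start, 2 of 28 had a lost peak and 2 a kept one. Among the 8 with a lost peak, 5 of 7 tested in RNA were called, 3 higher and 2 lower, where 53.7% of all genes were called. Over the whole list 21 of 31 were called, 6 higher and 15 lower. Those higher at a lost peak included Cbx7 and Cbx8, chromobox subunits of PRC1. Cbx7 rose from a median of 9.70 CPM (2.26 to 11.99) to 28.2 (10.7 to 60.3), and Cbx8 from 4.01 (0.290 to 7.72) to 13.96 (10.2 to 31.1) with no overlap; the lost peak at Cbx8 was 2643 bp wide and in 3 adult control and 0 adult Dis3 cKO lists. Kdm2b, which brings a form of PRC1 to CG-rich DNA, fell (-1.24 ± 0.11), as did Jarid2, a PRC2 cofactor (-0.46 ± 0.11), which was not called with ERCC scaling (edgeR adjusted p = 0.0777).
Among 19 candidate genes for H3K27me3 imprinting, 10 held a lost peak, E2f3 and Inhbb near a start, and 17 held a kept peak. These are 52.6% and 89.5% of the list, above the 4.64% and 18.1% of all autosomal genes for both kinds of peak. Of 8 tested, 4 rose (Sfmbt2, Gab1, Enc1 and Etv6, by 0.90 to 2.32 on the log2 scale) and 1 fell, Inhbb, a subunit of inhibin and activin B. Over the whole list 7 of 13 rose and 1 fell, and 53.7% of all genes were called. With counts summed per first title number, none of these 5 was called (edgeR adjusted p from 0.0603 for Sfmbt2 to 0.111 for Etv6). None of 15 oocyte markers searched had a lost peak in its body and 1 had a kept peak (6.67%), against 4.64% and 18.1% of all autosomal genes. Of miRNA hairpins, 5 overlapped a lost peak: Mir1247, Mir125b-1, Mir6402, Mir6973b and Mir7229. They are named as a list alone, with no share over all hairpins or at kept peaks to set beside the count.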

How the data were processed

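CUT&Tag peak lists were deposited by the authors, 1 per library, with chromosome, start, end, total signal, maximum signal and its place, a layout that SEACR writes; the signal is the authors' own, and SEACR and mm10 are named in the submitters' processing notes. Each CUT&Tag library was first downsampled randomly to the same read number, duplicates included, per the labels' design text. RNA files hold read counts per gene as deposited by the authors (STAR 2.7.2a and HTSeq 0.9.1 appear in the submitters' processing notes). The IgG samples were not analysed here.

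Overlaps of 1 bp or more were computed in Python 3.11.15 and checked against bedtools 2.31.1. RefSeq genes and promoter windows are GRCm38.p6; no genome sequence of the peaks was used. Counts were tested in R 4.3.3 by edgeR 4.0.16 (TMM, quasi-likelihood, filterByExpr, Benjamini-Hochberg, 4 p20 groups in 1 fit; adult groups in another), with DESeq2 1.42.0 as an alternative. SE is the log2 fold change over the root of F. CPM are TMM-scaled, except detection shares and marker levels, which use gene counts. The fit was tested on simulated data. Reads carry no molecular identifiers, so floors cover counting error only. Columns of no sample numbered 0. The members, gene lists and tests were chosen with earlier results of these data known. Named regions are the 10 highest in signal, the 5 widest and 3 on each side of the limit; named genes are those starting near the strongest lost peaks, the 10 largest rises and falls, listed genes and the targeted genes, of which a part is printed; some listed genes are not reported here.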

Additional observations from a re-analysis of the deposited data

Results flagged for a closer look

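In 33 gene and group sets of 8 libraries examined, 6 had 1 library standing far from the rest of its group by Dixon's test, which flags about 1 in 20 groups by chance. In p20 controls the highest library was at 0.411 CPM for Klf12 (next 0.0498), at 0.281 for C230057M02Rik (next 0), at 1.14 for Map6 (next 0.290) and at 6.37 for Gsc (next 3.71). The lowest control library for Csrnp3 was at 5.87 CPM, with the next at 49.1. In dcKO the highest library for Prkcb was at 0.363 CPM, with the next at 0.0714.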

How the results depend on the processing

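The number of lost peaks depends on the rule. It was 824 (7.40% of the shared control peaks, close to 8.37%) with 50% reciprocal overlap among controls, 1629 (2.85%) when a dcKO peak within 1 kb counted as kept, 2646 with control list 1 restricted to its median signal or above, and 12571 with control and dcKO lists exchanged; leaving out 1 list gave 7674 to 9140, since fewer lists must then agree or be empty. Lists 2 and 3 as reference and no width limit gave 4512 to 5097. A signal floor in all control and dcKO lists gave 5950 of 29952 shared peaks (19.9%). The adult difference in lost peaks ran from -15.5 to -3.05 points when 1 list was left out, and was -77.8 points in lost peaks of 2 kb or wider, a class set after seeing the data. The gap between lost and kept peaks in adult controls was -2.91 points when 50% of the peak had to be covered (exact permutation p = 0.75), and was -18.5 to -8.27 points with 1 list left out. The Pol II difference was 0.685 points with 50% coverage, 1.81 with kept peaks weighted to the members' widths and 1.42 to 1.53 with 1 list left out. The wider gap in adult Dis3 cKO lists ran from -30.8 to -20.6 points with 1 list left out. The cause of these shifts was not tested. The number of genes called in dcKO in either direction stayed within 1.5 times under DESeq2, no filter, ERCC scaling, only control and dcKO in the fit and counts summed per title number, while start genes that rose went from 81 to 53 with ERCC scaling. In the other comparisons, counts summed per title number or code left 8 start genes and 286 of all genes in Dis3 cKO, 2 and 174 in Exosc10 cKO and 0 and 0 in adult Dis3 cKO (edgeR; 75 start genes and 3577 of all genes at an unadjusted p under 0.05); summing leaves 2 samples per group. With the title number as a replicate block, 453 genes holding a lost peak, 157 start genes and 8412 of all genes were called. Same-numbered control and dcKO libraries did not deviate from their group means together in every pair (correlations from -0.316 to 0.165). Each correlation compares single oocytes, so this check cannot decide whether the numbers pair the groups. This check does not bear on libraries of 1 group that share a first number. Among named genes, Syt2, Fstl4 and Sfmbt2 lost their call under 3 or more of these settings, Etv6 and Tbx4 both under ERCC scaling and with counts summed per title number, Jarid2 under ERCC scaling, and Efna3, Inhbb, Gab1, Enc1, Pax2 and Tbx3 with counts summed per title number, with no change of sign; Gm15998, Kcnk13 and Neurog3 were called under at least 1 of them. Depth (dcKO libraries were shallower) limits genes near 0.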
